A study of Mus musculus with 27 samples.

Results

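The Mff knockout clones gs1_B4 and gs1_C8 are derivatives of 4T1, a mouse mammary carcinoma line that spreads readily to distant organs, and each was made with CRISPR-Cas9 to lack mitochondrial fission factor. They were compared with each other gene by gene, gs1_C8 against gs1_B4, by polyA RNA sequencing. The comparison asks what differs between 2 clones of 1 genotype. Each clone had 3 libraries, so that 6 of the 27 libraries of the series enter the contrast, and they were chosen by the clone code in their column names. The other libraries of the knockout arm were parental 4T1 with no knockout, the Drp1 (gene Dnm1l) clones gs1B8 and gs2_B4, and the Fis1 clones gs1_B11 and gs2_F6, also 3 libraries each, 21 in all, and they served for the estimate of spread and as levels to read the Mff clones against. The 6 libraries of cells kept with leflunomide or DMSO were not part of the fit. No Mff clone received a drug. Each knockout line is 1 clone, so the 3 libraries of a clone share a founder cell, and what follows describes these 2 lines. The public labels number the clones without giving their codes, so that the match of code to number is unknown here. Of 55401 genes in the table, 13940 passed the filter on low counts and were tested.

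Mff is a tail-anchored protein of the outer mitochondrial membrane that recruits the GTPase Drp1, which then constricts and divides the organelle. Fis1 is another outer membrane protein of that route, while the mitofusins Mfn1 and Mfn2 and the inner membrane GTPase Opa1 fuse mitochondria. Type I interferons, the pathway most visible in the comparison, bind a receptor made of Ifnar1 and Ifnar2. The receptor's kinases Jak1 and Tyk2 phosphorylate STAT proteins such as Stat2, which join Irf9 and switch on a large set of antiviral genes, some of which encode more of the pathway's own sensors and factors. Tumour cell lines can keep these genes on at a low level without added interferon.

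The Mff libraries held from 21874493 to 26900488 counts, with 2.43% to 4.11% of them in ribosomal RNA genes. Pearson correlations of log2 CPM (counts scaled to library size after TMM normalisation, which corrects for composition) were 0.9879 to 0.9911 between libraries of 1 clone and 0.9466 to 0.9529 between clones. The labels do not say whether a clone's libraries came from separate cultures. P-values therefore rest on the spread among these libraries, and that spread may be technical. The labelled cell type was checked against markers. Mammary carcinoma epithelium had all 10 of its markers tested, including Epcam at 172, 179 and 162 CPM in gs1_B4 and at 190, 191 and 184 CPM in gs1_C8. Of 7 T and NK cell markers 5 had no count in either clone, the summed level of that list lay between 0 and 0.18 CPM, and of 6 endothelial markers none was tested. Of 7 fibroblast markers 3 had no count in either clone and 1 was tested and higher in gs1_C8 (log2 0.39), with summed levels of 4.88 to 6.68 CPM in gs1_B4, 6.48 to 8.16 CPM in gs1_C8 and 4.28 to 4.33 CPM in parental cells; the part of these markers in the matrix gene differences below was not tested. Of 7 macrophage markers 3 were tested, 1 higher in gs1_C8 (log2 2.03) and 2 lower (down to -3.6). The summed levels of that list were 9.5 to 12.42 CPM in gs1_B4, 8.17 to 9.11 CPM in gs1_C8 and 8.9 to 9.94 CPM in parental cells. In bulk RNA, fewer cells that express a gene and less of its RNA per cell cannot be told apart.

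Mff itself (ENSMUSG00000026150.14, GRCm38 chromosome 1, 82724890 to 82752394) was present in both clones. It stood at 47.6, 46.9 and 45.0 CPM in gs1_B4 and at 41.0, 41.0 and 45.3 CPM in gs1_C8, against 80.7, 84.4 and 91.4 CPM in parental cells. The 6 knockout libraries lay below the 3 parental ones, and the clones overlapped. Between the clones the log2 fold change was -0.13 ± 0.06 (SE), with a 95% interval of -0.26 to -0.01 and an adjusted p of 0.062 in edgeR's quasi-likelihood test with Benjamini-Hochberg adjustment. The difference passed the threshold of 0.05 without the third library of gs1_C8 (-0.19), with the serial run as a replicate block (-0.13), with all 27 libraries (-0.15) and with limma voom (-0.14). These are RNA levels, and Mff protein was not measured here. In the other 4 clones Mff stood at 88.1 to 98.1 CPM.

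Most genes of mitochondrial division differed little between the clones. Of 14 tested fission genes, 5 were higher in gs1_C8 and 1 was lower, where 28.3% of all tested genes were higher and 26.4% lower, and the list's median log2 fold change was 0.08 against 0.0 over all genes. None of them differed 2-fold. Dnm1l, which encodes Drp1, stood at 212, 228 and 233 CPM in gs1_B4 and 235, 231 and 238 CPM in gs1_C8, a log2 fold change of 0.07 ± 0.05 with an edgeR adjusted p of 0.26. Fis1 stood at 62.2, 53 and 49.2 CPM against 56.7, 48.0 and 51.0 CPM (-0.08 ± 0.08, adjusted p of 0.45, edgeR). For neither gene were the clones' libraries apart. The higher members were Slc25a46, an outer membrane carrier protein, at 0.47, Marchf5, a ubiquitin ligase that acts on Drp1 and the mitofusins, at 0.39, Mtfr1l at 0.33, the dynamin gene Dnm2 at 0.22 and Mtfp1, an inner membrane protein of fission, at 0.52, all log2 fold changes. Mtfr1 fell by 0.58. The lower members numbered 2 without the first gs1_B4 library, without the second or the third gs1_C8 library, without the low-count filter, with all 27 libraries and with limma voom, and 3 with the serial run as a replicate block. Dnm2 was not called without the second gs1_B4 library (0.17), nor Mtfp1 without the third library of either clone (0.43) or without the low-count filter (0.51).

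The mitofusins moved together and Opa1 the other way. Mfn2 stood at 56.9, 51.8 and 54.9 CPM in gs1_B4 and at 76.6, 73.4 and 72.1 CPM in gs1_C8, with 65.1, 63.4 and 55.8 CPM in parental cells. The gs1_C8 libraries lay above all parental ones and those of gs1_B4 at their lower end, and the log2 fold change between them was 0.44 ± 0.06 (edgeR adjusted p of 1.6e-06). Mfn1 rose from 62.3, 66.0 and 67.4 CPM to 74.5, 75.5 and 71.3 CPM, or 0.18 ± 0.04 (edgeR adjusted p of 0.00088). Opa1 fell by 0.15 ± 0.04 on the log2 scale, from 145, 143 and 149 CPM to 130, 134 and 129 CPM (edgeR adjusted p of 0.0029). Among 18 genes of fusion and inner membrane shape, 3 rose and 6 fell, with a median of -0.04. Over all tested genes 28.3% were higher and 26.4% lower, so the list as a whole lay near the background. The largest fall was that of Micos13, a subunit of the complex that holds cristae junctions, at -0.72.

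Across the genome the clones differed at most tested genes in level, by small amounts at the greater number of them. Of 13940 tested genes 7626 were called at an adjusted p below 0.05 (54.7%), 3942 higher in gs1_C8 (28.3%) and 3684 lower (26.4%). At least 2-fold, 934 were higher (6.7%) and 630 lower (4.52%). Over all tested genes the median absolute log2 fold change was 0.293, and the middle 50% of genes lay between -0.29 and 0.29. Of the 7626 called genes 1564 differed at least 2-fold, so most called differences were smaller than that. The 6 libraries separated without overlap at 8040 genes (57.7%). The same fit called 5712 genes between the Drp1 clones (41.0%) and 6630 between the Fis1 clones (47.6%), with 832 and 1083 past 2-fold and median absolute differences of 0.209 and 0.252. The count was highest for Mff, and the difference between these counts was not tested. The pairs are not alike in their codes: both Mff clones carry gs1, while the Drp1 and Fis1 pairs each mix gs1 and gs2. A test against a fold of 2 in place of a fitted fold of at least 2 called 908 genes.

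The interferon response gave the broadest difference by list. Of 51 tested interferon-stimulated effectors, 48 were higher in gs1_C8 and 1 was lower, where 28.3% of all tested genes were higher, and the list's median log2 fold change was 2.95. Of 15 tested guanylate-binding and immunity-related GTPases, 15 were higher, with a median of 3.70. These counts hold members that passed the filter on low counts only through gs1_C8, and whose direction was thereby set: 5 effectors (Ifit1bl2, Mx1, Mx2, Oas2 and Phf11d) and 4 GTPases (Gbp10, Gbp6, Iigp1 and Tgtp2). In a split chosen after seeing the data, of the other 46 effectors 43 were higher and 1 lower, with a median of 2.55, and of the other 11 GTPases 11 were higher, with a median of 3.43. Among all genes that also passed with the libraries of either Mff clone left out in turn, 28.1% were higher. The summed level of the effectors was 788.29 to 867.42 CPM in the gs1_B4 libraries, 3159.43 to 4711.61 CPM in gs1_C8 and 645.93 to 708.88 CPM in parental cells. At least 2-fold, 45 effectors and 15 GTPases were higher, against 6.7% of all genes. Without the members set by the filter these were 40 of 46 and 11 of 11, against 822 of 13632 genes. Among the 7 groups of the knockout arm gs1_C8 had the highest mean for 49 of the 51 effectors, against 19.9% of all genes. That count and the medians that follow include the members set by the filter. Taking away each gene's chromosome median left the effectors' median at 2.83 and that of the GTPases at 3.63.

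The ligands were at the floor of detection. None of 14 listed interferon genes passed the filter, and 9 had no count in either clone. Ifnb1, the interferon that most cell types make first on sensing nucleic acid, had 3 counts over the gs1_B4 libraries, 10 over gs1_C8 and 0 over parental cells. The ratio between the clones was 3.47 with a 95% counting interval of 0.894 to 19.6, and without the filter the edgeR adjusted p was 0.41. The other 13 ligands together had 0 counts in gs1_B4 and 8 in gs1_C8. The summed level of the 14 was 0.04 CPM in each gs1_B4 library, 0.15 to 0.31 CPM in gs1_C8 and 0.0 to 0.05 CPM in parental cells. The clones' sums did not overlap, but they rest on a few reads and were not tested. Intervals and floors here and below cover counting error only.

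The receptors were lower in the clone with the higher response. Of 6 tested receptor genes, 4 fell and 0 rose, where 26.4% of all tested genes were lower. Ifnar2 fell from 18.6, 16.4 and 16.7 CPM in gs1_B4 to 9.94, 10.1 and 8.52 CPM in gs1_C8, with 12.7, 11.5 and 13.1 CPM in parental cells (log2 -0.85 ± 0.09, edgeR adjusted p of 4.9e-08). Ifnar1 fell from 38.9, 44.2 and 46.7 CPM to 29.6, 35.2 and 30.5 CPM (-0.44 ± 0.06). The clones' libraries were apart for both, with gs1_C8 below parental cells as well. Ifngr2 and Ifngr1, the chains of the interferon gamma receptor, fell by 0.21 and 0.15. Ifngr1 was not called without the second library of gs1_B4 (-0.12) or the second (-0.14) or the third (-0.16) of gs1_C8, nor with DESeq2, without the low-count filter or with the 6 Mff libraries alone (-0.16 in each), which leaves 3 receptors that fell. Ifnar1, Ifnar2 and Ifngr2 lie in the lower-reading stretch of chromosome 16 described further on, whose window medians were -0.23 to -0.39.

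Behind the receptor, the factors that carry the signal were higher but the kinases were not. Stat2 rose from 10.9, 11.8 and 10.7 CPM to 45.9, 33.6 and 35.6 CPM (1.78 ± 0.10, edgeR adjusted p of 5.2e-12) and Irf9 from 13.7, 12.1 and 10.1 CPM to 58.5, 50.5 and 49.9 CPM (2.15 ± 0.10). Parental libraries stood at 8.85 to 10.2 CPM for Stat2 and 8.1 to 9.57 CPM for Irf9, below both clones. Irf7, which amplifies interferon production, stood at 3.62, 3.21 and 2.08 CPM in gs1_B4, 99.4, 50.8 and 45.6 CPM in gs1_C8 and 1.59, 1.28 and 1.52 CPM in parental cells (4.46 ± 0.26). Its gs1_B4 libraries were low but above the parental ones. Jak1 stood at 160.0 to 170.0 CPM in gs1_B4 and 157 to 165 CPM in gs1_C8 (-0.03, edgeR adjusted p of 0.56), and Tyk2 at 10.1 to 10.7 and 9.59 to 11.1 CPM (adjusted p of 0.99, edgeR). In all, 10 of 14 kinases, STATs and IRFs were higher and 1 was lower, where 28.3% of all tested genes were higher. The lower one was Irf8, a factor best known from blood cells, which fell from 9.29, 9.75 and 11 CPM to 1.40, 2.10 and 2.22 CPM (-2.39 ± 0.23), with parental libraries at 3.17, 2.65 and 4.56 CPM.

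The brakes of the pathway included changes in both directions. Usp18, an interferon-induced protease that blocks the receptor, rose from 3.39, 3.11 and 2.89 CPM to 90.2, 50.1 and 54.5 CPM, against 0.645 to 1.15 CPM in parental cells (log2 4.38 ± 0.20). Socs3, a brake that cytokines of the IL-6 type induce, fell from 9.56, 9.18 and 9.75 CPM to 3.17, 3.30 and 3.73 CPM (-1.49 ± 0.09). Socs1, which interferon can induce, had overlapping libraries at 1.86 to 2.76 and 2.49 to 2.76 CPM (0.19 ± 0.20, edgeR adjusted p of 0.45). Of the 7 brakes 3 were higher and 2 lower, where 28.3% of all tested genes were higher and 26.4% lower. A list this short does not set the brakes apart from the background.

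Sensors of nucleic acid rose in most cases. Of 24 genes of cytosolic DNA and RNA sensing, 19 were higher and 2 lower, with a median of 0.97. The background was 28.3% higher and 26.4% lower, and 1 of the 24, Ifi207, passed the filter only through gs1_C8. Ddx58, which encodes the RNA sensor RIG-I, rose from 61.6, 62.4 and 65.2 CPM to 282, 224 and 228 CPM (log2 1.96 ± 0.07), and Ifih1, the RNA sensor MDA5, from 61.4, 67.7 and 67.9 CPM to 219, 175 and 175 CPM (1.53 ± 0.09). In parental cells Ddx58 stood at 51.6 to 59.8 CPM and Ifih1 at 33.9 to 38.5 CPM. Both clones lay above parental cells, gs1_B4 by little for Ddx58. Zbp1, a sensor of left-handed nucleic acid, rose from 0.276, 0.181 and 0.073 CPM to 15.1, 6.10 and 5.55 CPM (5.64 ± 0.44). Tlr3, the endosomal receptor for double-stranded RNA, rose by 1.56, and Adar, which edits such RNA, by 0.94. The DNA arm moved less. Cgas, the sensor of cytosolic DNA, rose from 28.5, 30 and 31.8 CPM to 43.2, 41.3 and 41.2 CPM (0.48 ± 0.05), and parental libraries at 35.8 to 40.0 CPM lay nearer to gs1_C8. Sting1, its partner, had overlapping libraries at 21.1 to 23.3 and 20.4 to 21.8 CPM (-0.10, edgeR adjusted p of 0.33).

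Called rises among the effectors began at 0.59 on the log2 scale, and the list lay on 15 chromosomes. Oas2, which had the largest, had 2 counts over the gs1_B4 libraries and stood at 22, 9.11 and 9.85 CPM in gs1_C8, a ratio of 558 (95% counting interval 154 to 4610). Oas3, an oligoadenylate synthetase that responds to double-stranded RNA, stood at 2.01, 0.831 and 1.21 CPM in gs1_B4, at 115, 82.9 and 75.9 CPM in gs1_C8 and at 2.50, 1.84 and 1.70 CPM in parental cells (6.09 ± 0.22). Rsad2, which makes a chain-ending nucleotide, stood at 2.24, 2.38 and 2.23 CPM against 162, 97.1 and 126 CPM (5.81 ± 0.19), with 1.04 to 1.52 CPM in parental cells. In both genes gs1_B4 and parental cells stayed at or below 2.5 CPM and gs1_C8 stood alone. Cmpk2, the neighbour of Rsad2 and a mitochondrial nucleotide kinase, rose by 6.35. Isg15, a ubiquitin-like protein, stood at 11.4, 8.38 and 6.83 CPM in gs1_B4 and 114, 54.9 and 59.2 CPM in gs1_C8, with 3.99, 4.65 and 5.80 CPM in parental cells (3.10 ± 0.23). Ifit1, which binds foreign RNA caps, stood at 7.83, 8.27 and 6.14 CPM, 131, 73.6 and 89.4 CPM and 2.79, 1.6 and 2.72 CPM in the same order (3.73 ± 0.17). For these 2 genes gs1_B4 lay between parental cells and gs1_C8. Over the 48 higher effectors, the mean of gs1_B4 was above the parental mean for 34, and each gs1_B4 library was above each parental library for 25.

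The members that did not follow were few. Epsti1 fell from 5.31, 4.52 and 5.51 CPM to 0.994, 1.23 and 1.6 CPM (log2 -2.01 ± 0.20), below the parental 2.33 to 3.27 CPM. Ifitm2, a membrane protein that hinders virus entry, was not called (-0.02, edgeR adjusted p of 0.88). Ifit2 showed the smallest called rise, at 0.59 ± 0.16, while its relatives Ifit1 and Ifit3 rose by 3.73 and 4.56. Another 7 listed effectors were not tested, among them Ifi44l at 0.363 to 1.03 CPM in gs1_C8 and Ifitm1 at 0.0394 CPM or less in both clones. Reads of near-identical copies, such as Ifit3 with Ifit3b, Tgtp1 with Tgtp2, Gbp2 with Gbp2b and the Oas1 genes, could have been split among them, so single values of those genes are uncertain.

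The GTPases, which attack the membranes around intracellular pathogens, were higher in each of the 15 tested cases, by a log2 fold change of 2.69 or more, and lay on 4 chromosomes. Irgm1 stood at 17.9, 17 and 14.8 CPM in gs1_B4 and at 125, 91.1 and 104 CPM in gs1_C8, with 17, 16.3 and 16 CPM in parental cells (2.69 ± 0.09). Gbp3, a guanylate-binding protein, rose from 5.98, 5.17 and 4.93 CPM to 126, 62.7 and 63.8 CPM (3.98 ± 0.22), against 2.07 to 3.13 CPM in parental cells. Gs1_B4 matched parental cells within the spread for Irgm1 and was above them for Gbp3. Tgtp1 rose from 0.329 to 0.361 CPM to a range of 30.4 to 64.9 CPM (6.90 ± 0.36). Gbp10 had no count in gs1_B4 and stood at 2.84, 1.71 and 0.488 CPM in gs1_C8. The other 4 listed GTPases were not tested.

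**Figure D1:**
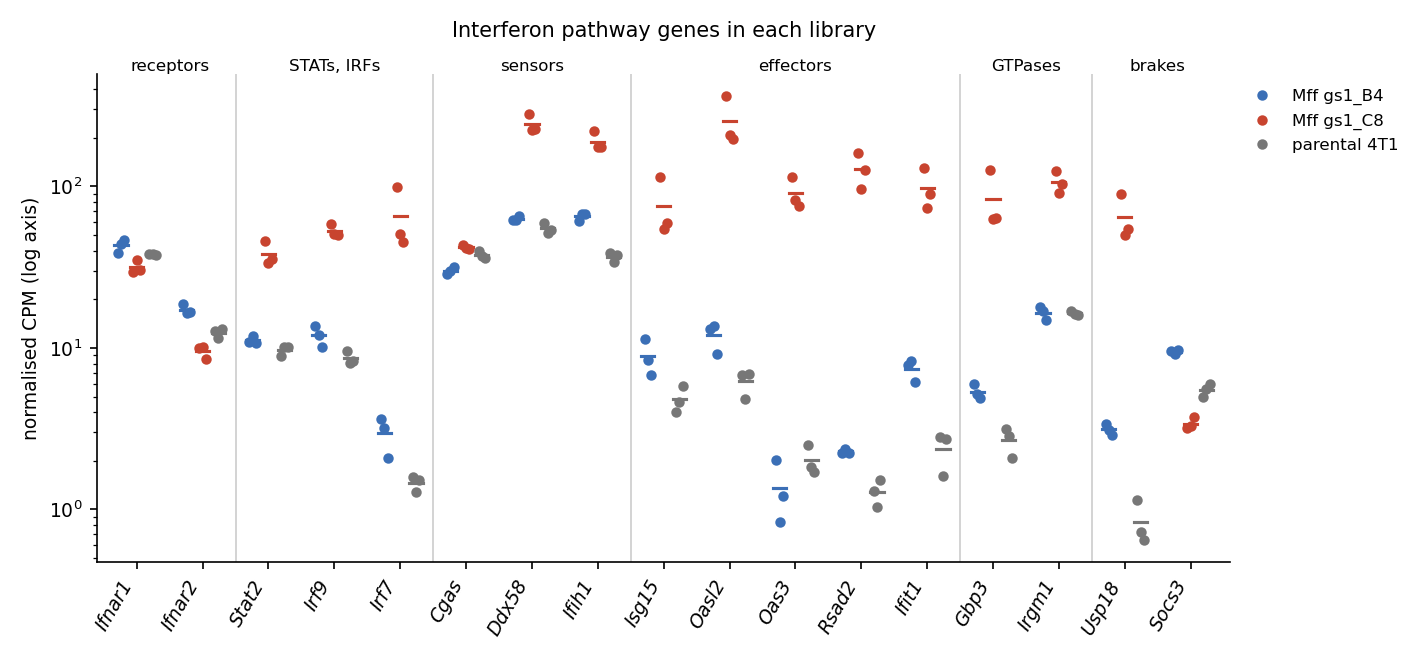
Normalised CPM (log axis) of 17 interferon pathway genes in each library, by role, in Mff gs1_B4, Mff gs1_C8 and parental 4T1; points are the 3 libraries and bars their means. The gs1_C8 points stand above the others from Stat2 to Usp18, at 33.6 to 45.9 CPM for Stat2, while both Ifnar genes and Socs3 lie lower in gs1_C8.

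The first gs1_C8 library stood above its replicates for this response. It was the highest of the 3 for 47 of the 48 higher effectors and for 15 of 15 GTPases. Without it the median of the 51 effectors was 2.68 and 48 of them were higher, and the GTPases' median was 3.44 with 15 higher. Its depth and ribosomal RNA share lay within the range of the other Mff libraries.

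The motif that Stat2 and Irf9, in a complex, and other IRFs bind was looked for in promoters of the interferon lists. Tested members were scored whether called or not, so the shares describe the lists and not the difference between the clones. The letters searched were GAAANNGAAA on both strands (TTTCNNTTTC on the other), a short form of the interferon-stimulated response element in which overlapping matches were allowed, over 250 bases before and 50 after each gene start in RefSeq (GRCm38.p6). Of the tested effectors 41 were matched by symbol and 20 of them held it (48.8%), as did 9 of 10 matched GTPases (90.0%), 7 of 19 sensing genes (36.8%), 2 of 12 kinases, STATs and IRFs (16.7%) and 0 of 5 receptors. Among all promoters of that RefSeq set 1079 of 27025 held it (3.99%), and among those of tested genes 348 of 9633 (3.61%). A match is a description of the letters and not a shown binding site. Of named genes that rose, Irf7, Irf9, Oasl2 and Cmpk2 had no match in this window. The stretches below were chosen from genes with a match, to show how the letters recur, read 5′ to 3′ on the gene's strand, with matches in capitals, each 100 bases long and ending before the gene start.
Isg15, chr4:156200830-156200929, minus strand: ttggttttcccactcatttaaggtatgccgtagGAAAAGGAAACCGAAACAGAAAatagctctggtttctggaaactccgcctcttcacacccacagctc
Oas3, chr5:120777680-120777779, minus strand: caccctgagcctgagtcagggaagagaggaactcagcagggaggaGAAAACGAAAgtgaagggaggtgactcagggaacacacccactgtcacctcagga
Rsad2, chr12:26456518-26456617, minus strand: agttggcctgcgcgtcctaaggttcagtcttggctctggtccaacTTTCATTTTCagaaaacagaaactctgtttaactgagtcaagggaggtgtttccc
Ifit1, chr19:34640759-34640858, plus strand: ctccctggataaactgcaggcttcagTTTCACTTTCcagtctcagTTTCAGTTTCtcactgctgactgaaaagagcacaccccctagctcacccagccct
Ifit3, chr19:34583362-34583461, plus strand: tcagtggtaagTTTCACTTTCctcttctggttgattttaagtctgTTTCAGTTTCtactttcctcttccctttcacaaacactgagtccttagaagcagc
Gbp2, chr3:142620559-142620658, plus strand: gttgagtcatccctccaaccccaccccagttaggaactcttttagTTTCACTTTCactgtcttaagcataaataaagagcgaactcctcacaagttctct
Irgm1, chr11:48871421-48871520, minus strand: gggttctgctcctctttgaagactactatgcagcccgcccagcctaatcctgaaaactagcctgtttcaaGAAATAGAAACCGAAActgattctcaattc
Igtp, chr11:58199456-58199555, plus strand: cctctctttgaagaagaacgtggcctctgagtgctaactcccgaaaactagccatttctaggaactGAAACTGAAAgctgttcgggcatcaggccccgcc
Stat2, chr10:128270248-128270347, plus strand: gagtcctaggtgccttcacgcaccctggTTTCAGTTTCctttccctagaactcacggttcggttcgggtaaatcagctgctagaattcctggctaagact
Isg15 held 3 overlapping matches that read as 1 run in capitals, Irgm1 held 2 that overlap, and Ifit1 and Ifit3 held 2 apart. Oas3, Rsad2, Gbp2, Igtp and Stat2 held 1 each.

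Antigen presentation was higher in its interferon-linked steps, while the heavy chain genes H2-K1 and H2-D1 were not called. Of 19 genes of MHC class I heavy chains and peptide loading, 11 were higher and 5 lower in gs1_C8, with a median of 0.41. These were 57.9% and 26.3%, against 28.3% and 26.4% of all tested genes, and falls reached -1.03. The list's summed level was not higher in gs1_C8, at 3444.17 to 3682.84 CPM against 3670.18 to 4019.86 CPM in gs1_B4. Parental libraries had 3127.42 to 3236.68 CPM. Without the third gs1_B4 library or the second gs1_C8 library 3 were lower. Tap1, a subunit of the peptide transporter, rose from 0.905, 0.506 and 0.475 CPM to 11.2, 6.64 and 6.39 CPM (log2 3.69 ± 0.35), and Tapbp, which holds empty class I molecules at the transporter, from 50.3, 47.5 and 49.5 CPM to 138, 110 and 104 CPM (1.26 ± 0.09). The non-classical H2-T24 and H2-T23 rose by 5.45 and 2.27. H2-K1 and H2-D1 had overlapping libraries, with log2 fold changes of 0.09 and 0.13 (edgeR adjusted p of 0.36 and 0.11), and reads of H2 genes may be shared among copies. H2-D1 passed the threshold without the second (0.2) or the third (0.18) gs1_C8 library. H2-K1 stood at 64.4 to 70.7 CPM in gs1_B4, 62.9 to 83.2 CPM in gs1_C8 and 40.2 to 42.2 CPM in parental cells. All 4 tested immunoproteasome genes were higher: the catalytic subunit genes Psmb8 by 3.22 and Psmb10 by 1.31, and the activator genes Psme2 by 1.00 and Psme1 by 0.94. Psme1, Psme2 and Irf9 are neighbours on chromosome 14, in a stretch of 14 genes with a median of 0.64.

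Chemokines showed larger single differences than the list as a whole. Of 25 chemokine and cytokine genes, 10 were higher and 6 lower, with a median of 0.36, where 28.3% of all tested genes were higher and 26.4% lower. Of the 10, Cxcl11, Il33 and Tnfsf10 passed the filter only through gs1_C8, and of the other 22 tested genes 7 were higher and 6 lower, near the background. Ccl2, which draws monocytes, had 2 counts over the gs1_B4 libraries and stood at 41.3, 24.2 and 37.7 CPM in gs1_C8, with 3.61, 3.05 and 3.22 CPM in parental cells. The ratio of the clones was 1370 with a 95% counting interval of 380 to 11300. Gs1_B4 was below and gs1_C8 above every parental library, so the clones lay on opposite sides of the parental level. Cxcl10, an interferon-induced T cell attractant, rose from 7.60, 7.12 and 5.55 CPM to 68.9, 57.4 and 69.0 CPM (log2 3.27 ± 0.12), against 2.65 to 3.45 CPM in parental cells. Tslp, an epithelial cytokine, stood at 42.7, 57.2 and 47.6 CPM in gs1_B4 and at 319, 316 and 353 CPM in gs1_C8, with 219, 219 and 285 CPM in parental cells (2.74 ± 0.11). Here gs1_B4 was the clone further from the parental level.

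NF-kappaB genes split. Of 19 factors and targets, 4 were higher and 6 lower, near the background of 28.3% and 26.4%, with a median of -0.07. Vcam1, an adhesion molecule that inflammatory signals induce, fell from 39.6, 35.3 and 30.2 CPM to 7.88, 6.60 and 6.92 CPM (log2 -2.29 ± 0.12), below the parental 26.9 to 29 CPM. Cd40, a co-stimulatory receptor, fell from 6.02, 6.0 and 5.0 CPM to 0.147, 0.145 and 0.311 CPM (-4.82 ± 0.34). Parental cells had 0.625 to 1.12 CPM of Cd40, so gs1_B4 was above and gs1_C8 below them.

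Mesenchymal and matrix genes were lower in gs1_C8. Of 22 tested, 14 fell and 4 rose, where 26.4% of all tested genes were lower, and the median log2 fold change was -0.82. Snai2 passed the filter only through gs1_B4, and of the other 21 genes 13 fell, with a median of -0.70. Without the second gs1_C8 library 2 rose. Vim, the intermediate filament of mesenchymal cells (ENSMUSG00000026728.9, chromosome 2, 13573927 to 13582826), stood at 633, 575 and 517 CPM in gs1_B4 and at 6.44, 8.2 and 8.17 CPM in gs1_C8, against 244, 252 and 252 CPM in parental cells. Gs1_C8 was far below and gs1_B4 above each parental library, and the log2 fold change between the clones was -6.24 ± 0.09 (edgeR adjusted p of 2.3e-20). In the 4 other clones Vim stood at 148 to 545 CPM. Tnc, the matrix protein tenascin C, fell from 43.6, 47.8 and 42.6 CPM to 3.83, 3.95 and 3.28 CPM (-3.59 ± 0.10), with 9.07 to 11.1 CPM in parental cells. The repressors of epithelial genes Zeb2 and Twist1 each fell by 2.19, Zeb2 from 18.7, 19.4 and 22 CPM to 3.72, 4.43 and 5.06 CPM. Snai1, another such repressor, had overlapping libraries at 4.71 to 5.16 and 3.68 to 5.62 CPM (-0.11, edgeR adjusted p of 0.51). Fn1, fibronectin, fell by 2.40 and Spp1, osteopontin, by 2.33, while the basement membrane collagen gene Col4a2 rose by 0.64.

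Epithelial junction genes were higher in gs1_C8 in 24 of 41 cases and lower in 4, with a median of 0.35. Of all tested genes 28.3% were higher and 26.4% lower. None of the 41 was called 2-fold lower, though fitted values ran down to -1.81. Cldn1, a tight junction claudin, rose from 2.44, 1.37 and 1.90 CPM to 24.5, 15.8 and 22.8 CPM (log2 3.46 ± 0.23), with 1.16 to 1.64 CPM in parental cells. Cdh1, E-cadherin, rose from 247, 243 and 247 CPM to 425, 371 and 341 CPM (0.63 ± 0.08), and parental libraries at 409, 386 and 340.0 CPM overlapped gs1_C8. Cldn1 was thus raised above the parental level in gs1_C8 while Cdh1 was lowered in gs1_B4. The desmosomal genes Dsg2 and Pkp1 rose by 1.03 and 1.96, the scaffold gene Tjp1 by 0.45 and the recycling GTPase Rab25 by 1.02. Ap1m2, part of the clathrin adaptor that sorts cargo in epithelia, stood at 17, 15.8 and 16.9 CPM in gs1_B4 and at 55.1, 51.4 and 53 CPM in gs1_C8 (1.68 ± 0.08), with 21.6 to 25.9 CPM in parental cells and at most 0.0138 CPM on average in the Drp1 and Fis1 clones. The transcription factor gene Grhl2, which maintains epithelial genes, had overlapping libraries at 54.8 to 62.7 and 56.7 to 61.3 CPM (0.03, edgeR adjusted p of 0.66).

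Keratins shifted in kind. Of 9 tested, 6 were higher and 2 lower, where 28.3% of all tested genes were higher and 26.4% lower. Krt14, of basal epithelium, stood at 9.80, 11.1 and 5.66 CPM in gs1_B4 and at 107, 102 and 69.5 CPM in gs1_C8, with 67.5, 69.0 and 54.3 CPM in parental cells (log2 3.39 ± 0.24). Here gs1_B4 was below the parental level and gs1_C8 above it. Krt19 rose from 101, 86.7 and 82.4 CPM to 278, 253 and 254 CPM (1.54 ± 0.07). Krt8 and Krt18 pair in simple epithelium. Krt8 had overlapping libraries (-0.10, edgeR adjusted p of 0.46), and Krt18 fell by 0.45 ± 0.05. Krt20, of gut epithelium, stood at 2.28 to 2.48 CPM in gs1_B4 and at most 0.0888 CPM in gs1_C8, and passed the filter only through gs1_B4.

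Among 31 genes of integrins and focal adhesion 13 rose and 13 fell (41.9% each), with a median of -0.16. The shares over all tested genes were 28.3% and 26.4%. Itgb3 fell by 3.08 ± 0.22, from 6.06, 5.78 and 9.24 CPM to 0.663, 1.12 and 0.666 CPM, and parental libraries at 0.577 to 1.00 CPM matched gs1_C8. Fermt2, an integrin activator, fell from 135, 129 and 130.0 CPM to 55.8, 53 and 58.4 CPM (log2 -1.23 ± 0.06), with 66.5 to 71.1 CPM in parental cells. Itga2, a collagen receptor chain, fell by 1.27. Ptk2, focal adhesion kinase, rose by 0.95, and lies in a stretch of chromosome 15 that was low in gs1_B4, described further on. Other surface proteins were among the largest falls of all. Alcam, a cell adhesion molecule, stood at 85.7, 98.7 and 101 CPM in gs1_B4 and at 1.36, 1.81 and 2.17 CPM in gs1_C8, against 33.2 to 37.2 CPM in parental cells (-5.75 ± 0.13). The metalloprotease Adam19 fell by 4.85 and the adhesion protein Nectin3 by 3.36. For Alcam, Adam19 and Nectin3 gs1_B4 lay above and gs1_C8 below the parental libraries.

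**Figure D2:**
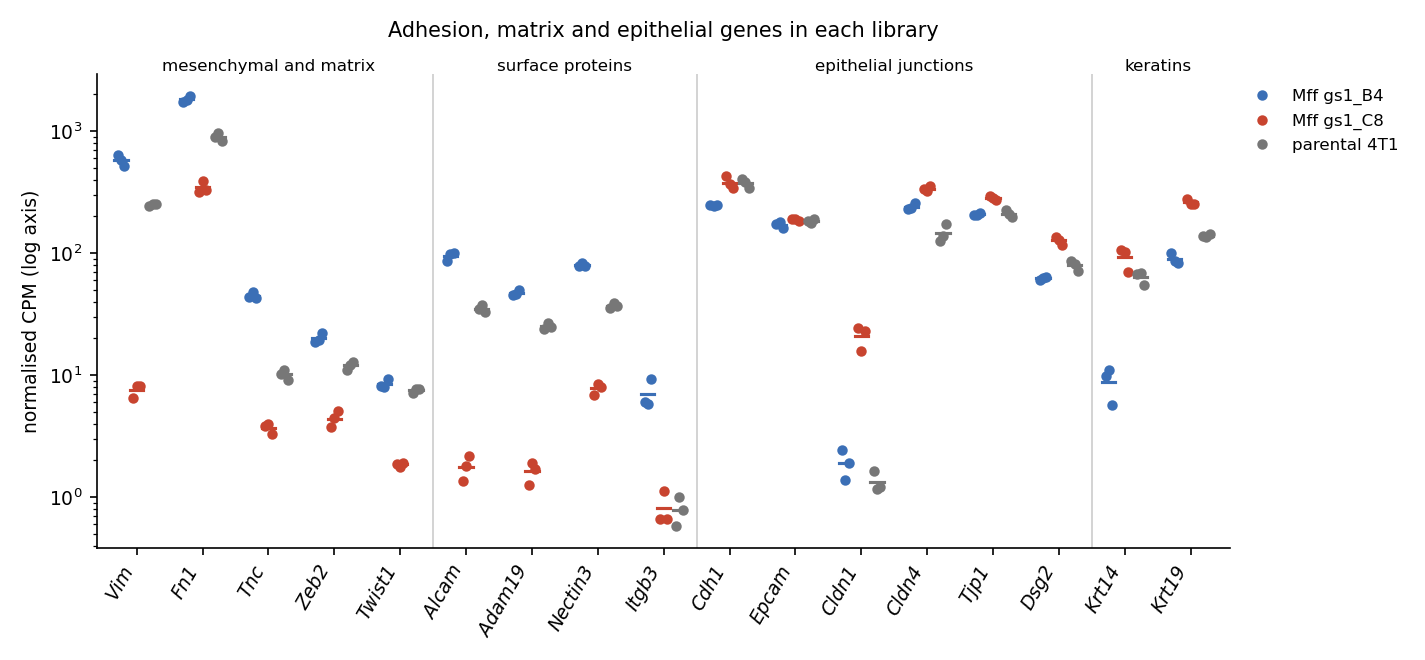
Normalised CPM (log axis) of 17 adhesion, matrix and epithelial genes in each library of Mff gs1_B4, Mff gs1_C8 and parental 4T1; points are the 3 libraries and bars their means. Mesenchymal genes and the surface genes lie lowest in gs1_C8 (Vim at 6.44 to 8.2 CPM), with the exception that Itgb3 is as low in parental cells, while Cldn1 and the keratins lie higher in gs1_C8 than in gs1_B4.

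Growth factor genes moved in both directions. Of 15 genes of the EGF receptor family and its ligands, 6 were higher and 8 lower (40.0% and 53.3%). The shares over all tested genes were 28.3% and 26.4%. The receptor genes Egfr and Erbb3 rose by 1.09 and 1.32, and the ligand genes Epgn and Btc by 3.73 and 1.96. Btc rose from 5.71, 6.07 and 6.35 CPM to 23.5, 23 and 24.1 CPM, above the parental 8.2 to 9.22 CPM. The ligand gene Nrg1, which binds Erbb3, fell by 1.22, Hbegf by 0.93, and the feedback inhibitor Spry4 by 2.03. Among 19 genes of the TGF-beta family and its targets, 7 were higher and 6 lower, near the shares over all genes, with 3 lower without the first gs1_C8 library. Id2 and Id1, which block basic helix-loop-helix factors and are induced by BMP, rose by 2.26 and 1.41. Id2 stood at 10.5, 8.38 and 7.52 CPM in gs1_B4 and at 47.8, 40.6 and 37.9 CPM in gs1_C8, with 34.3 to 46.3 CPM in parental cells. Here gs1_C8 matched parental cells and gs1_B4 was low. Of 16 YAP and TEAD targets 7 fell and 3 rose, 5 with limma voom or without the third gs1_B4 library. Ccn1, a matrix-bound signalling protein, fell from 503, 472 and 552 CPM to 137, 138 and 156 CPM (log2 -1.83 ± 0.12).

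Lipid synthesis was lower in gs1_C8. Of 28 genes of cholesterol and fatty acid synthesis 22 fell and 1 rose (2 without the third gs1_B4 library and with limma voom), where 26.4% of all tested genes were lower, and the median log2 fold change was -0.60, or -0.77 after each gene's chromosome median was taken away. Scd1, the desaturase that makes oleate, stood at 90.4, 104 and 114 CPM in gs1_B4 and at 23.8, 26.2 and 31.2 CPM in gs1_C8, with 92.4 to 98.9 CPM in parental cells (-1.93 ± 0.10). Hmgcs1, an early enzyme of the mevalonate route, fell from 271, 328 and 293 CPM to 123, 152 and 182 CPM (-0.97 ± 0.11), against 328 to 356 CPM. Gs1_B4 was near the parental level for Scd1 and gs1_C8 was below it for both. Fads1 fell by 1.5, Elovl6 by 1.35, Fdps by 1.34 and Msmo1 by 1.11. Fasn, fatty acid synthase, had overlapping libraries (-0.11, edgeR adjusted p of 0.32), and was called without the first gs1_B4 library (-0.21). So had Sqle, squalene epoxidase (-0.11, adjusted p of 0.25, edgeR), which lies in the stretch of chromosome 15 that was low in gs1_B4. Sqle stood at 132 to 150 CPM in gs1_B4 and 111 to 144 CPM in gs1_C8, below the parental 205 to 219 CPM in both clones. Sqle was called without the third gs1_C8 library (-0.21) and with limma voom (-0.19).

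Most genes of the endoplasmic reticulum's stress response were lower in gs1_C8 than in gs1_B4. Of 20 genes of the unfolded protein response 14 fell and 1 rose in gs1_C8, where 26.4% of all tested genes were lower. The median of the 20 was -0.38, and gs1_B4 had the highest mean of the 7 groups for 13, against 17.2% of all genes. Their summed level was 5968.25 to 7077.25 CPM in gs1_B4 and 4772.11 to 5450.29 CPM in gs1_C8, and the parental 5412.4 to 6102.91 CPM overlapped both. Pdia6, a disulfide isomerase, stood at 424, 471 and 455 CPM in gs1_B4 and at 219, 221 and 228 CPM in gs1_C8, with 248 to 293 CPM in parental cells (log2 -1.01 ± 0.05). Creld2 fell by 0.99, the secreted protective factor Manf by 0.89, the transcription factor gene Xbp1 by 0.87 and Hsp90b1 by 0.67. Xbp1 stood at 63.0 to 70.5 CPM in gs1_B4, 32.1 to 40.7 CPM in gs1_C8 and 32.2 to 41.3 CPM in parental cells. Hspa5, the main chaperone of the compartment, had overlapping libraries (0.07, edgeR adjusted p of 0.49). The 1 higher member is not called with the 6 Mff libraries alone or with all 27, nor without the first or second gs1_B4 library or the second or the third gs1_C8 library.

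Ribosomal protein genes fell by little and together. Of 83 tested cytosolic ribosomal protein genes, 65 were lower in gs1_C8 and 4 higher, where 26.4% of all tested genes were lower. Their median was -0.32, with no member past 2-fold. Rpl31 fell by 0.94 and Rpl12 by 0.88. Rps4x and Rpl10, both on the X chromosome, rose by 0.47 and 0.46. The list's summed level was 41089.08 to 50042.81 CPM in gs1_B4, 35149.39 to 39810.39 CPM in gs1_C8 and 46911.97 to 54543.98 CPM in parental cells. Nuclear genes of respiratory complex I fell in 20 of 36 cases (55.6%, against the same 26.4%) and rose in 3, with a median of -0.18. Without the first gs1_B4 library 12 fell. Ndufb9 rose most, at 61.8, 59.5 and 51.1 CPM in gs1_B4 and 209, 188 and 195 CPM in gs1_C8, against 206, 206 and 241 CPM in parental cells (log2 1.78 ± 0.07). It was the low level in gs1_B4 that set it apart, and it lies in the stretch of chromosome 15 that was low in gs1_B4. Ndufb11 and Ndufa1, both on the X chromosome, rose by 0.54 and 0.48. Of 13 mRNAs of mitochondrial DNA, 4 fell and 0 rose, 2 falling without the first gs1_B4 or the second gs1_C8 library. The share that fell, 30.8%, was near the 26.4% over all tested genes.

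Genes of the cell cycle differed by small amounts. Of 29 mitosis genes 16 fell and 3 rose, where 26.4% of all tested genes were lower, with a median of -0.10. The number of falls was 10 without the low-count filter and 9 with the 6 Mff libraries alone, nearer to the share over all genes. Cenpe, a kinetochore motor, fell by 0.79 and Ndc80 by 0.58, and Kif4 on the X chromosome rose by 0.77. Of 36 genes of DNA replication 15 fell and 5 rose. Ccnd1, the cyclin of early G1, fell from 964, 952 and 1010 CPM to 386, 446 and 456 CPM (log2 -1.19 ± 0.05), with 818 to 864 CPM in parental cells. Myc stood at 107, 111 and 122 CPM in gs1_B4 and at 257, 277 and 262 CPM in gs1_C8, against 208, 210 and 219 CPM in parental cells (1.23 ± 0.06). Of 35 genes of MYC and ribosome biogenesis 17 rose and 8 fell with a median of 0.09, and 11 rose without the first gs1_C8 library. Of 19 p53 targets 8 rose and 4 fell with a median of -0.06, where 28.3% of all tested genes were higher and 26.4% lower, with 2 falling without the third gs1_B4 library or the first or second gs1_C8 library. Fas, a death receptor, rose from 3.27, 3.11 and 2.34 CPM to 17.9, 14.5 and 15.5 CPM (2.46 ± 0.18), against 2.16 to 2.79 CPM in parental cells, and Cdkn1a, the p21 inhibitor of cyclin-dependent kinases, fell by 1.86 ± 0.19.

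**Figure D3:**
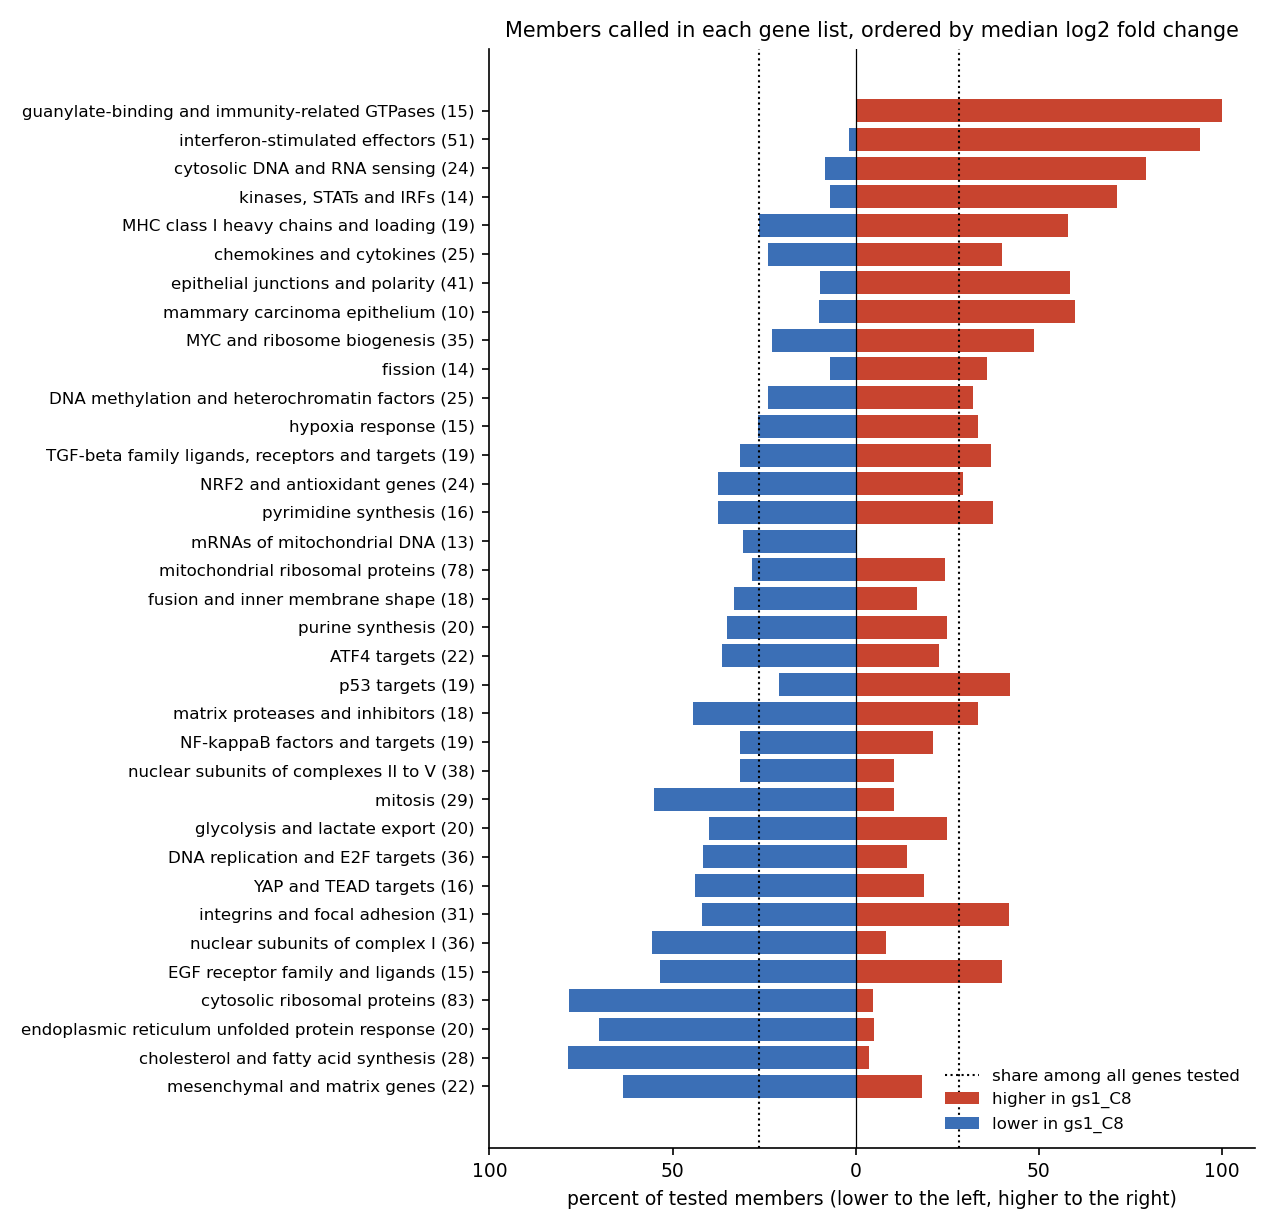
Percent of tested members of each gene list called higher (right) or lower (left) in gs1_C8 than in gs1_B4, lists ordered by median log2 fold change, with the number tested in brackets and dotted lines at the shares among all genes (28.3% and 26.4%). Interferon lists head the plot, with 48 of 51 effectors higher, and mesenchymal, lipid synthesis, unfolded protein response and ribosomal protein lists close it.

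Whole chromosomes were displaced between the clones. On the X chromosome 297 of 421 tested genes were higher in gs1_C8 (70.5%) and 19 lower (4.51%), with a median log2 fold change of 0.63. On chromosome 14, 320 of 500 were higher (64.0%) with a median of 0.39, and on chromosome 5, 452 of 898 (50.3%) with a median of 0.24. On chromosome 17, 410 of 686 were lower (59.8%) with a median of -0.34, and on chromosome 3, 360 of 705 (51.1%) with a median of -0.28. On chromosome 1 the median was -0.14, which is also where Mff lies. Medians of the other 14 lay between -0.11 and 0.08. Medians in windows of about 30 genes had the sign of their chromosome in each window of these 5, but some were near 0. The X ranged from 0.50 to 0.74, chromosome 14 from 0.29 to 0.54, chromosome 17 from -0.54 to -0.17, chromosome 3 from -0.42 to -0.11 and chromosome 5 from 0.03 to 0.36. The first window of chromosome 5, at 0.03, held 10 higher and 8 lower genes. On the 5 chromosomes 2131 of 3210 genes were called (66.4%) and 438 passed 2-fold (13.6%), against 5495 of 10730 (51.2%) and 1126 (10.5%) elsewhere.

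Read against parental cells, the displacements fell on different chromosomes in the 2 clones. The median log2 difference of X-linked genes from the parental mean was -0.78, -0.73 and -0.72 in the gs1_B4 libraries and -0.10, -0.11 and -0.04 in gs1_C8. On chromosome 14 it was -0.24, -0.23 and -0.22 in gs1_B4 and 0.15, 0.15 and 0.16 in gs1_C8. On chromosome 3 it was -0.02, -0.02 and -0.03 in gs1_B4 and -0.31, -0.32 and -0.30 in gs1_C8. The X was low in gs1_B4, chromosome 3 was low in gs1_C8, and chromosome 14 lay on either side of the parental level. On chromosome 5 the shift was in gs1_C8, at 0.22, 0.25 and 0.23 against -0.02, -0.04 and -0.02, and on chromosome 17 gs1_B4 stood at 0.11 in each library and gs1_C8 at -0.21, -0.20 and -0.23. X-linked genes were also low in Fis1 gs1_B11 (-0.75) and Drp1 gs2_B4 (-0.52), less so in Drp1 gs1B8 (-0.23) and not in Fis1 gs2_F6 (0.03). Chromosome 3 was low as well in Fis1 gs1_B11 (-0.26) and Drp1 gs2_B4 (-0.17), but not in Drp1 gs1B8 (0.06) or Fis1 gs2_F6 (0.01). On chromosome 14 the Drp1 and Fis1 clones all stood at 0.18 to 0.25, near gs1_C8 and unlike gs1_B4. On chromosome 17 they all stood at 0.1 to 0.14, near gs1_B4 and unlike gs1_C8. Xist, the RNA of the inactive X, had 1 count in gs1_B4, 6 in gs1_C8 and 12 in parental cells over 3 libraries each. On the X, Pgrmc1, a haem-binding membrane protein, rose from 35.1, 37.2 and 33.6 CPM to 106, 109 and 111 CPM (log2 1.62 ± 0.05), and the receptor gene Il13ra1 by 1.49.

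**Figure D4:**
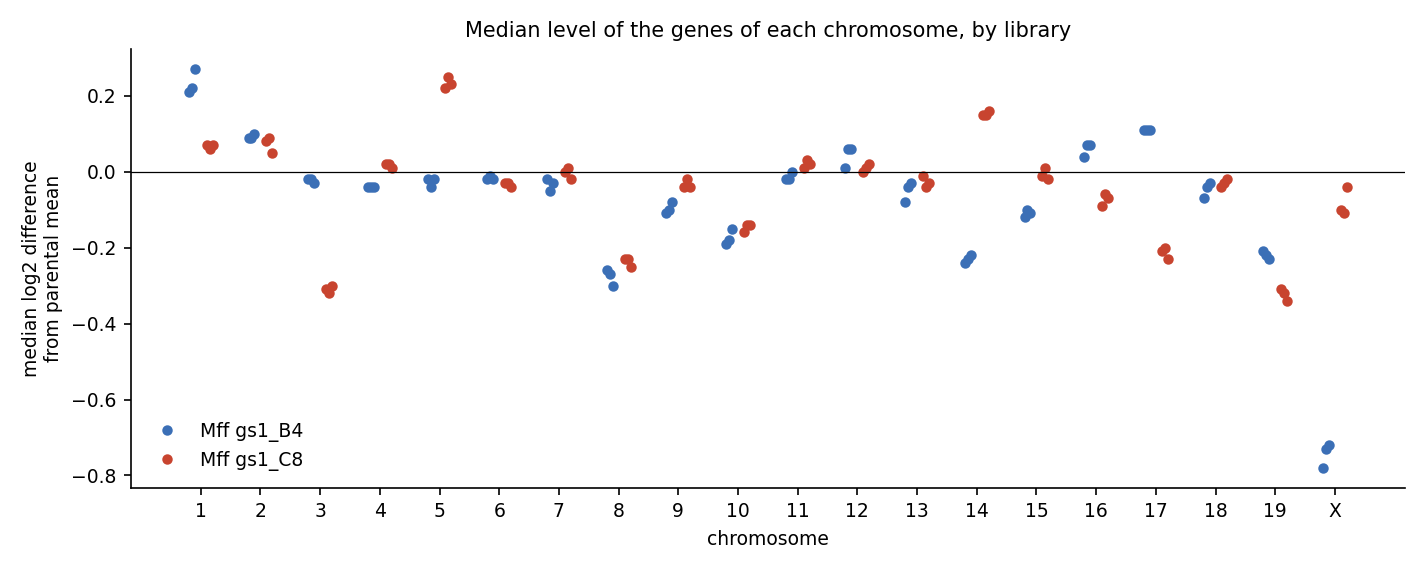
Median log2 difference from the parental mean of the genes of at least 5 CPM on each chromosome, with 1 point per library of Mff gs1_B4 and Mff gs1_C8. The 3 libraries of a clone lie together, and the clones stand furthest apart on the X (-0.78 to -0.72 and -0.11 to -0.04), 14, 17, 3 and 5, while on chromosome 8 both lie near -0.25.

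Parts of other chromosomes were displaced as well. The limits of the stretches are those of a running median of 11 genes and are not exact edges. Some genes inside them differed little, such as Washc5 (log2 0.14) and Eif3d (-0.10). On chromosome 15 a stretch from 54571192 to 73645762 held 48 genes of at least 5 CPM, of which 39 were higher in gs1_C8 and 4 lower, with a median log2 fold change of 1.15. Its genes stood at -0.97, -0.96 and -0.83 from the parental mean in the gs1_B4 libraries and at 0.06, 0.06 and 0.07 in gs1_C8, and gs1_B4 was the lowest of the 7 groups for 37 of them. Myc, Ndufb9, Ptk2 and Mal2 lie in it. Zhx1, a transcriptional repressor, stood at 17.6, 18.6 and 19.4 CPM in gs1_B4 and 153, 163 and 158 CPM in gs1_C8, with 81.3 to 93.0 CPM in parental cells (3.09 ± 0.06). Phf20l1, a reader of methylated lysine, rose from 70.5, 72.7 and 74.1 CPM to 233, 249 and 238 CPM (1.73 ± 0.04), with parental libraries at 197 to 206 CPM. A second stretch, from 77958998 to 79403569, held 22 genes, 16 higher and 2 lower, with a median of 0.84 and levels of -1.0, -1.01 and -1.06 in gs1_B4 and -0.06, -0.09 and -0.07 in gs1_C8. Eif3l, a translation initiation factor subunit, stood there at 222, 217 and 211 CPM in gs1_B4 and 523, 497 and 497 CPM in gs1_C8, with 537 to 551 CPM in parental cells (1.23 ± 0.03). The window between these stretches had a median of 0.02, the 6 windows after them -0.13 to 0.05, and the 3 windows that start before them 0.19 to 0.43. On chromosome 16 the 4 windows up to position 26105784 had medians of 0.06 to 0.13, and the 6 from 26581704 onward had medians of -0.23 to -0.39. Stretches were found with a running median of 11 genes past 0.5 in size, 9 in all, on chromosomes 14, 15, 17 and X. The cause of these displacements was not tested, and only RNA was analysed here.

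**Figure D5:**
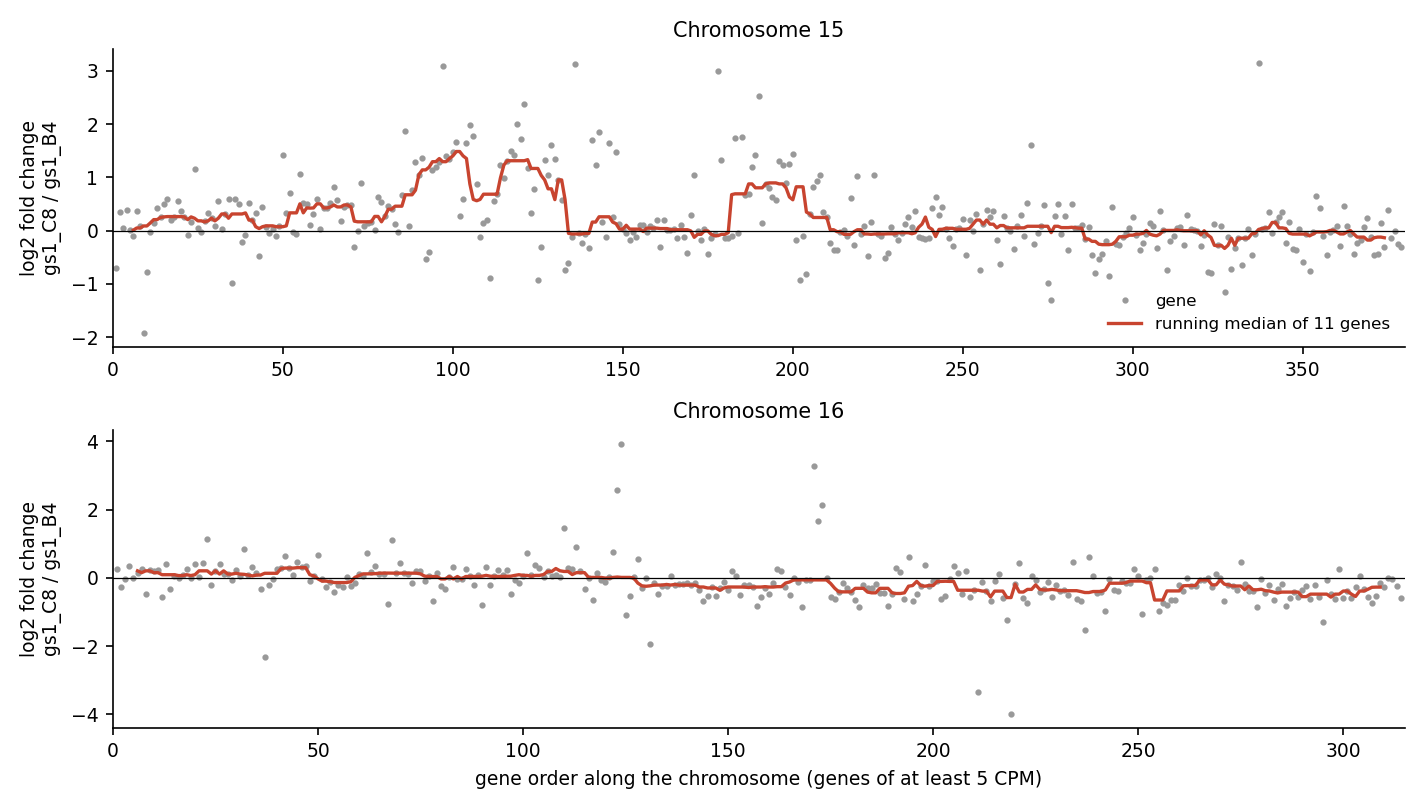
Log2 fold change of gs1_C8 over gs1_B4 for genes of at least 5 CPM, in order along chromosomes 15 and 16 (horizontal axis, gene rank), with a running median of 11 genes as a line. The line rises over 48 and 22 genes of chromosome 15 and returns to 0, and on chromosome 16 it steps below 0 and stays there.

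Some genes were near silent in 1 clone and plainly expressed in the other. With at most 3 counts over the 3 libraries of a clone and at least 5 CPM in the other, 4 genes were near 0 in gs1_C8 and 11 in gs1_B4. Sulf2, which trims sulfate from heparan chains, had 0 counts in gs1_B4 and stood at 35.8, 34.1 and 27.3 CPM in gs1_C8, at least 877-fold higher when gs1_B4 is set to 3 counts over its libraries, with 4.01 to 6.16 CPM in parental cells. Evi2a, a membrane protein, had 1 count in gs1_C8 and 12.2, 13.1 and 13.5 CPM in gs1_B4, a ratio of 1000.0 (95% counting interval 179 to 39600). The protease gene Gzme had 2 counts in gs1_C8 against 8.19, 8.24 and 5.44 CPM in gs1_B4, and Podnl1 had 2 against 8.31, 7.59 and 6.32 CPM. Of the genes near 0 in gs1_B4, 4 had at least 1 CPM in parental cells, Ccl2, Sulf2, Zfp518b and Xlr, and Gm10222 and Oas2 had at most 3 counts there. Gm10222, a pseudogene, was counted at 75.1 CPM in the third gs1_C8 library and at 0 in the other 2, so it does not separate the clones. With a limit of 0 counts 1 and 4 genes remained in the class, and with at least 1 CPM in the other clone it held 20 and 44.

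A pair of related zinc finger genes was near 0 in a reciprocal way. Zfp518a (chromosome 19, 40894705 to 40917947) stood at 9.53, 10.2 and 12.7 CPM in gs1_B4 and at 0 counts in gs1_C8, at least 279-fold lower, with 13.7, 13.2 and 12.7 CPM in parental cells. Zfp518b (chromosome 5, 38668484 to 38684826) had 3 counts in gs1_B4 and stood at 16.2, 17.2 and 14.6 CPM in gs1_C8, with 10.2, 10.4 and 11.1 CPM in parental cells, a ratio of 431 (147 to 2090). Parental cells expressed both genes, and each Mff clone expressed 1 of them. The other clones showed the same picture: Zfp518a stood at 19.5 CPM in Drp1 gs1B8, 14.4 in Fis1 gs1_B11 and 9.81 in Fis1 gs2_F6, where Zfp518b was at or below 0.039 CPM, and Drp1 gs2_B4 had 0.0139 CPM of Zfp518a and 33.2 CPM of Zfp518b.

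A few X-linked genes that were low in gs1_B4 were plainly expressed in gs1_C8. Rhox5, a homeobox gene of the reproductive tract on the X, stood at 0.236, 0.144 and 0.438 CPM in gs1_B4 and at 17.1, 14.4 and 16.2 CPM in gs1_C8 (log2 5.84 ± 0.25), with 0.481 to 0.691 CPM in parental cells. It was the 1 tested gene of 30 listed germline genes that are usually methylated in somatic cells. Xlr, an X-linked gene of lymphocytes and germ cells, stood at 10.9, 11.2 and 12.2 CPM in gs1_C8 with 1 count in gs1_B4. Its mean was 2.42 CPM in parental cells and 53.9 CPM in Drp1 gs2_B4. The uncharacterised X-linked gene 3830417A13Rik stood at 116, 106 and 124 CPM in gs1_C8 and at most 0.329 CPM in any gs1_B4 or parental library (9.95 ± 0.27). Its mean was at most 0.08 CPM in the Drp1 and Fis1 clones. It therefore passed the filter on low counts only through gs1_C8, and its direction was thereby set. Of 25 genes of DNA methylation and heterochromatin, 8 were higher and 6 lower, with a median of 0.06, near the shares over all tested genes (28.3% higher, 26.4% lower). Dnmt3b, a de novo DNA methyltransferase, rose from 4.53, 2.75 and 3.18 CPM to 10.6, 10.7 and 9.54 CPM (1.57 ± 0.14), against 5.82 to 6.65 CPM in parental cells.

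The remaining largest differences fell outside the lists. Higher in gs1_C8 were Arhgdib, a GTPase inhibitor of blood cells, at 27.2, 26.1 and 27.8 CPM against at most 0.108 CPM in gs1_B4 (log2 8.41 ± 0.24), Nrep, with 3 counts in gs1_B4 and a ratio of 298 (102 to 1450), and Nts, the peptide neurotensin (6.58). Lower were Mcpt8, a serine protease of basophils, which fell from 53.1, 57.4 and 50.4 CPM to 0.773, 0.907 and 0.932 CPM (-5.94 ± 0.12), the transcription factor gene Mecom (-4.65), the tubulin gene Tubb2b (-4.29), the cadherin gene Cdh17 (-4.27), Samsn1 (-4.16), Nptx1 (-3.80) and Fer1l6 (-3.62). Mcpt8 stood at 4.52 to 6.17 CPM in parental cells, so its high level belonged to gs1_B4. Mecom stood at 11.4 to 11.7 CPM in parental cells, 11.4 to 13.7 CPM in gs1_B4 and 0.368 to 0.799 CPM in gs1_C8, so its low level belonged to gs1_C8.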

How the data were processed

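PolyA RNA libraries of 4T1 cells (KAPA RNA HyperPrep, per the labels' protocols) were sequenced. The authors deposited expected counts per gene, estimated with RSEM from reads trimmed with Trimmomatic 0.35 on GRCm38 (mm10), per the submitters' processing notes. The aligner, the RSEM version, the annotation and the strand setting are not stated in those sources, so overlapping and antisense genes may share reads. Of the values above 0, 74.9% were whole numbers with a tolerance of 0; all were rounded before testing.

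The 21 knockout-arm libraries were fitted together, with 1 coefficient per clone, by edgeR 4.0.16 in R 4.3.3 (filterByExpr, TMM, quasi-likelihood F test). The contrast gs1_C8 minus gs1_B4 was adjusted by Benjamini-Hochberg over 13940 genes and called at an adjusted p below 0.05. A 2-fold call also needed a fitted log2 fold change of at least 1 in size. Errors of fold changes are standard errors. Libraries were assigned by the clone code in the column names, and replicate numbers follow column order. Columns form serial runs, but the check of shared deviations gave correlations of 0.065, -0.032 and 0.112, so runs were not taken as pairs. The 6 Mff libraries differed from each other by more than sampling noise and were all kept. The script was tested on simulated data.

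Members and the 47 gene lists were chosen with earlier results of these data known, and lists are described by counts and medians only. Of 1137 listed symbols 1134 matched. Named genes were the fission and fusion genes Dnm1l, Fis1, Mff, Mfn1, Mfn2 and Opa1, the 12 largest called changes each way with at least 5 CPM and no overlap, up to 8 called and 3 uncalled members of each list, the 6 highest genes near 0 in either clone, up to 4 genes per chromosome or stretch, and interferon pathway members. Chromosome levels are medians over genes of at least 5 CPM of log2(CPM + 0.5) minus the parental mean. Alternatives were DESeq2 1.42.0 and its size factors, limma 3.58.1 voom, no filter, other sets of libraries, ribosomal RNA left out, a run block and each Mff library left out. Promoters were from RefSeq (GRCm38.p6).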

Additional observations from a re-analysis of the deposited data

How the results depend on the processing

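The number of genes called between the clones lay between 6691 and 8393 over all alternatives run, and from 7032 to 7519 with 1 Mff library left out. With the serial run as a replicate block it was 7982, and each library correlated best with its own run in runs 1 and 3 but not in run 2. Effectors higher in gs1_C8 numbered 48 to 50. At least 2-fold, 1429 to 1952 genes were called, and 908 with glmTreat against a fold of 2. The Mff difference passed the threshold with all 27 libraries (-0.15), with the replicate block (-0.13), with limma voom (-0.14) and without the third gs1_C8 library; leaving out 1 library gave -0.19 to -0.11. The cause was not tested. Genes near 0 in gs1_C8 and gs1_B4 numbered 4 and 11, 1 and 4 at 0 counts, 5 and 18 at up to 10 counts, and 20 and 44 with at least 1 CPM in the other clone. Over 1092 list counts under alternatives, 42 moved by more than 1.5 times, in 18 of 78 counts. Of 157 genes named with a test besides Mff, none changed direction, 4 lost and 3 gained the call under some alternative. The block moved 1 list count by more than 1.5 times, that of fission genes lower, from 1 to 3. After subtraction of chromosome medians, chosen after seeing the data, list medians were 1.10 for sensing, 2.83 for effectors, 0.64 for class I genes, -0.77 for lipid synthesis, -0.21 for proteases and -0.53 for the EGF receptor family. Counts near 0 limit the comparison of interferon ligands.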
